A study of Mus musculus with 6 samples.

Results

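Glucocorticoid-responsive genes were followed in mouse livers with and without hepatocyte *Med23*, 24 hours after a single dose of the liver toxin carbon tetrachloride (CCl4). The set holds 10 genes, taken by their symbols, of 24346 genes in the deposited table: *Tsc22d3*, *Fkbp5*, *Sgk1*, *Dusp1*, *Zbtb16*, *Cebpd*, *Hsd11b1*, *Errfi1*, *Ddit4* and *Pik3r1*. RNA of whole livers was sequenced from 6 male mice of strain C57/BL6, 3 controls that carried floxed *Med23* without deletion (med23f/f, labelled wt) and 3 with the floxed gene deleted by *Albumin*-cre (med23Δli, labelled med23 ko). All 6 mice were 8 weeks old and received 0.6 μl CCl4 per g body weight in sunflower oil by intraperitoneal injection, so the comparison is of 2 genotypes under the same injury and includes no uninjured liver. *Albumin*-cre was used to delete *Med23* in hepatocytes, and values of whole liver cannot show which cells lost it. The tissue values below are sums over all liver cells, in which fewer cells of a type and less RNA per cell cannot be told apart.

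Glucocorticoids are adrenal steroid hormones that rise with stress and fasting. They enter the cell and bind the glucocorticoid receptor, which chaperones hold ready in the cytosol and which then moves to the nucleus and binds DNA, often at a short palindrome. In the liver the hormone raises the enzymes of gluconeogenesis and amino acid breakdown and restrains inflammatory signals. The 10 genes are widely used to read this response, but each also answers to other inputs, such as insulin, growth factors, heat shock or the circadian clock. The files hold no hormone values.

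Expression is given as FPKM, sequenced fragments scaled to the length of the transcript and to the mapped fragments of the library, so that levels can be compared between genes. For the test of the genotypes, values entered limma as log2(FPKM + 0.1) for the 11956 genes whose mean reached 0.5 FPKM, and a gene is said to have risen or fallen where its p, adjusted by the Benjamini-Hochberg method over all these genes, was under 0.05. All 10 members passed the filter on low values. *Med23* itself was at 2.97 to 4.14 FPKM in the controls and 2.91 to 3.40 FPKM in the med23Δli livers (adjusted p = 0.685, limma), so its level over all exons and cells does not tell the groups apart, and directions rest on the labels. FPKM keeps no counts, the depth of each library is therefore unknown, and the spread between 3 mice is the error used. An exact two-sided permutation test of 3 mice against 3 cannot give a p below 0.1.

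Among cell type markers, the hepatocyte genes *Alb*, *Ttr*, *Apoa1*, *Apob* and *Fgb* summed to 24816 to 34806 FPKM in the controls and 22063 to 28252 FPKM in the med23Δli livers, and none of these 5 passed the test. All 6 endothelial markers fell, of which *Stab2*, *Kdr* and *Clec4g* passed whichever library was left out and *Pecam1*, *Cdh5* and *Lyve1* did not (adjusted p up to 0.0515, 0.0571 and 0.0971, limma). Their summed level was 81.4 to 119 FPKM in the controls against 43.7 to 46.9 FPKM in the med23Δli livers. The 7 adipocyte markers summed to 53.5 to 66.8 FPKM in the controls, but to 23.8, 193 and 32.2 FPKM in med23Δli replicates 1, 2 and 3. Nearly all of this sum was *Fabp4*, which other cells also express, at 53.2, 66.3 and 64.7 FPKM in the controls and 23.2, 177 and 32.0 FPKM in the med23Δli livers. *Adipoq*, which marks fat cells, was listed at 0 in every control and in med23Δli replicate 1 but at 5.65 FPKM in replicate 2. Of the 6 stellate cell markers 1 fell (*Des*, adjusted p = 0.0497, limma), which passed in only 1 of 6 fits with a library left out, and of the macrophage, monocyte, neutrophil and cholangiocyte markers none passed. The 4 red cell markers in the table summed to 27.5 to 204 FPKM in the controls and 40.5 to 69.4 FPKM in the med23Δli livers. Of these *Hba-a1* passed as higher (adjusted p = 0.041, limma; in 1 of 6 fits with a library left out). Its reads can be split with its near-identical copy *Hba-a2*. *Hba-a1* was at 0.000282, 0 and 0.00311 FPKM in the controls and 18.0, 4.77 and 0.139 FPKM in the med23Δli livers. It thus passed the filter only through the med23Δli values. Its call was lost with a pseudocount of 1 (0.0834), no filter (0.0817), quantile normalization (0.0644), no trend (0.0526) and robust eBayes (0.0943). The part of these cell types in the values of the members was not tested.

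The 10 members did not move together. *Tsc22d3* and *Pik3r1* rose in the med23Δli livers, *Fkbp5*, *Hsd11b1* and *Errfi1* fell, and the other 5 did not pass the test. Thus 2 of 10 members rose, where 11.6% of all tested genes did, and 3 of 10 fell, where 9.48% of all tested genes did. Of the members that passed, *Pik3r1* rose more than 2-fold (4.45% of all tested genes rose this far) and *Fkbp5* and *Hsd11b1* fell more than 2-fold (3.45% of all tested genes fell this far). In the same 5 genes the 3 values of one group lay wholly outside those of the other, 2 with the med23Δli livers higher (23.3% of all tested genes) and 3 with them lower (20.4% of all tested genes). The median log2 fold change of the 10 members was −0.17, beside 0.02 over all tested genes, and the median size without its sign was 0.89, beside 0.34. The members were chosen with earlier results of these data known, so these comparisons with all tested genes are a description only.

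**Figure D1:**
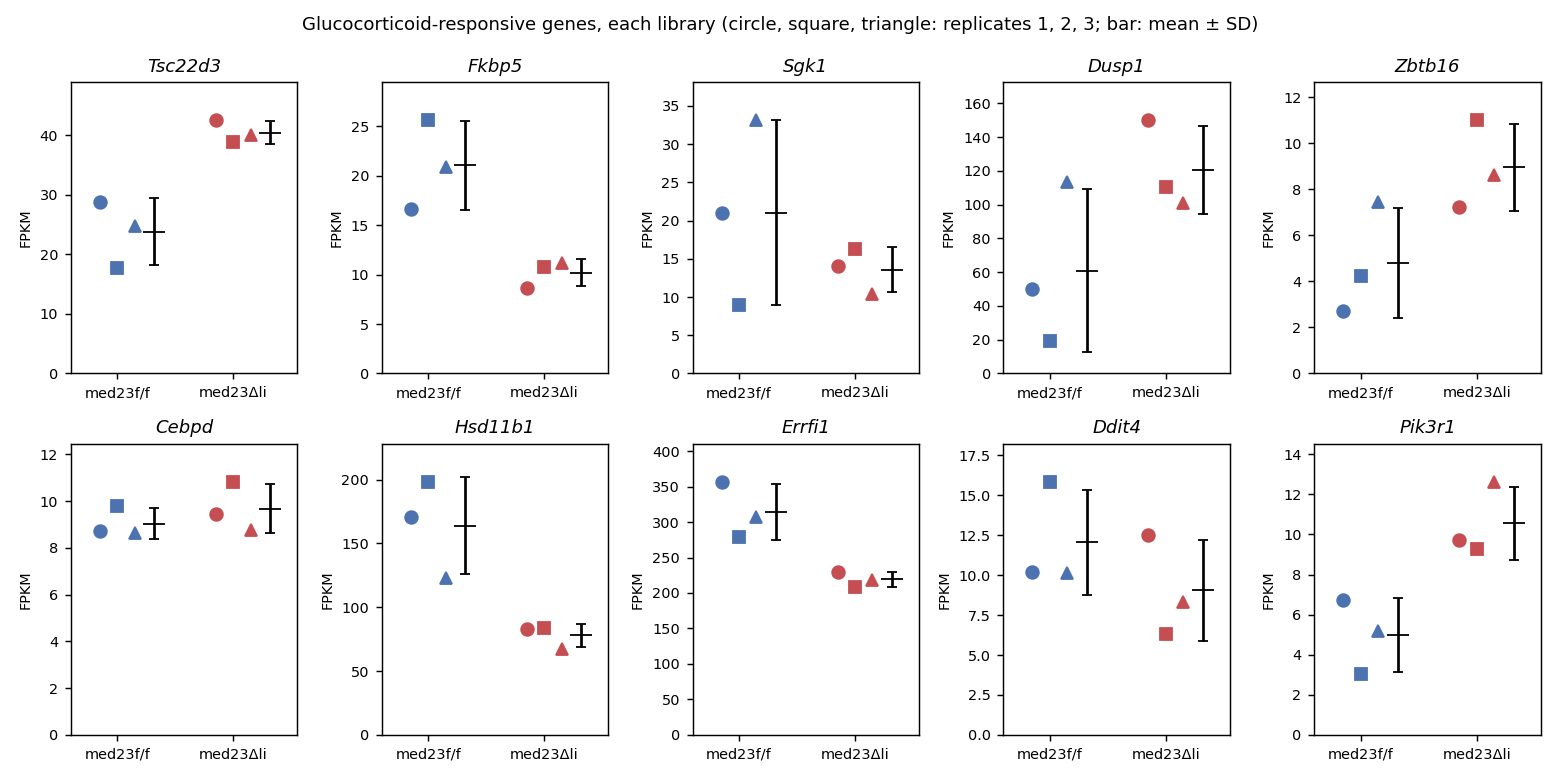
FPKM of each of the 10 members (vertical axes from 0) in the 3 med23f/f livers (blue) and the 3 med23Δli livers (red), with circles, squares and triangles for replicates 1, 2 and 3 and black bars for the mean ± SD. The groups do not overlap in *Tsc22d3*, *Fkbp5*, *Hsd11b1*, *Errfi1* and *Pik3r1*, and control replicates 2 and 3 lie far apart in *Sgk1* and *Dusp1*.

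In the control livers the levels spanned from *Errfi1*, at a mean of 314 FPKM, and *Hsd11b1*, at 164 FPKM, down to *Pik3r1*, at 4.99 FPKM, and *Zbtb16*, at 4.80 FPKM. *Dusp1*, *Tsc22d3*, *Fkbp5*, *Sgk1* and *Ddit4* lay between, at 60.9, 23.8, 21.1, 21.02 and 12.1 FPKM, and the ranges of neighbours in this order overlapped. *Cebpd*, at 9.04 FPKM, was below every value of *Ddit4* and above every value of *Pik3r1*. In the med23Δli livers the order changed: *Dusp1*, at 120.4 FPKM, stood above *Hsd11b1*, at 77.9 FPKM, with no overlap. *Sgk1*, *Pik3r1*, *Fkbp5*, *Cebpd*, *Ddit4* and *Zbtb16* came within 8.95 to 13.6 FPKM, with overlapping ranges between neighbours.

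*Hsd11b1* acts first in the pathway, since its product, 11β-hydroxysteroid dehydrogenase type 1, turns inactive into active glucocorticoid inside hepatocytes. The gene (ENSMUSG00000016194.14) occupies the minus strand of chromosome 1 (GRCm38, the assembly that mm10 stands for) from 193221634 to 193264075. It was at 171, 198 and 123 FPKM in the control livers and at 83.2, 83.4 and 67.2 FPKM in the med23Δli livers. Every med23Δli liver was below every control, with means of 164 ± 38.3 and 77.9 ± 9.30 FPKM (SD, n = 3 each). This is a 2.07-fold fall, or −1.05 ± 0.20 in log2 units (estimate ± standard error, as in all such pairs that follow; adjusted p = 0.0118, limma). Leaving out each library in turn moved the log2 fold change between −1.25 and −0.90, and the adjusted p was 0.0537 without med23Δli replicate 3. The summed endothelial markers fell between the same groups, as given above, and the hepatocyte markers did not pass.

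*Fkbp5* encodes FKBP51, a co-chaperone that lowers the affinity of the receptor for hormone and is itself raised by the receptor, which closes a feedback loop. It lies on the minus strand of chromosome 17, from 28399094 to 28517527 (ENSMUSG00000024222.17). The control livers had 16.7, 25.6 and 20.9 FPKM and the med23Δli livers 8.62, 10.8 and 11.2 FPKM. All 3 med23Δli livers were again below all controls. The means of 21.1 ± 4.48 and 10.2 ± 1.37 FPKM (SD, n = 3 each) correspond to a 2.04-fold fall, or −1.03 ± 0.19 in log2 units (adjusted p = 0.0111, limma). With 1 library left out the log2 fold change was between −1.18 and −0.88, and the adjusted p passed 0.05 without med23Δli replicate 1 (0.0526).

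*Tsc22d3* encodes GILZ, a leucine zipper protein that mediates part of the anti-inflammatory action of the hormone, and it is a classical target of the receptor. It lies on the minus strand of chromosome X, from 140539528 to 140600659 (ENSMUSG00000031431.13). Its values were 28.8, 17.8 and 24.8 FPKM in the controls and 42.5, 38.8 and 40.0 FPKM in the med23Δli livers. The 3 med23Δli values were close to each other and all above the controls, opposite to *Fkbp5*. From 23.8 ± 5.60 FPKM the gene rose to 40.5 ± 1.89 FPKM (SD, n = 3 each), 1.73-fold or 0.79 ± 0.19 in log2 units (adjusted p = 0.0236, limma). The log2 fold change stayed between 0.59 and 0.94 with 1 library left out, but the adjusted p was 0.0921, 0.0735 and 0.0771 without med23Δli replicate 1, 2 and 3.

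*Dusp1* encodes a phosphatase that switches off the MAP kinases p38 and JNK, and it is raised both by the hormone and, within minutes, by stress signals. The gene (ENSMUSG00000024190.7; chromosome 17, minus strand, 26505590 to 26562128) shares exon sequence with *Ergic1* on the other strand in GENCODE, and the library kit did not keep strand. The annotation behind the FPKM is not given, so whether reads of this overlap enter the values of *Dusp1* is unknown. The controls had 49.8, 19.4 and 114 FPKM, a 5.86-fold range, and the med23Δli livers had 150.0, 110.3 and 101.0 FPKM. Control replicate 3 lay inside the range of the med23Δli livers, and the other 2 controls were below it. The difference of 1.31 ± 0.55 in log2 units was the largest among the members and did not pass (adjusted p = 0.122, limma). Without control replicate 3 it was 1.93 (adjusted p = 0.0139, limma), and without control replicate 2 it was 0.66 (adjusted p = 0.234, limma), so these 2 mice set its size.

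*Sgk1* encodes a kinase close to Akt that acts on ion channels and FOXO factors and was first found as a gene induced by serum and glucocorticoid. It lies on the plus strand of chromosome 10, from 21882184 to 21999903 (ENSMUSG00000019970.15). Promoter windows, from 250 bases before to 50 bases after a start site, were read from RefSeq on GRCm38.p6 for 8 of the 10 members, which have 17 windows. They were searched for the 6-base element AGAACA, which reads TGTTCT on the other strand, and for the pair AGAACA, 3 bases of any kind, then TGTTCT. The pair reads alike on both strands, so each match also counts as 2 single elements. One *Sgk1* window is shown whole because it holds the complete pair, its first base 189 bases before the start site. The window is chr10:21993640-21993939 on the plus strand, and capitals mark the elements.

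Sgk1, window with the complete pair: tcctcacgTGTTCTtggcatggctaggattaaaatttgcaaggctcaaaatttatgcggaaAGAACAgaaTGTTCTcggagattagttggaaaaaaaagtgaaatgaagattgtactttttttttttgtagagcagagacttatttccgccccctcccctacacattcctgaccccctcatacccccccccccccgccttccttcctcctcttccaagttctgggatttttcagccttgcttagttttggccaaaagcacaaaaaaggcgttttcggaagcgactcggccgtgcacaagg

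The complete pair occurred in 3 of all 32851 windows (0.00913%). A second *Sgk1* window held a pair with 2 mismatches in its 12 fixed bases, which 1.84% of all windows did at 2 mismatches or fewer, and no window of the other 7 members did. A single element was in 4 of the 17 windows of the members, 3 of *Sgk1* and 1 of *Tsc22d3*, and in 19.0% of all windows. The *Tsc22d3* window is shown because this gene rose and its element has no partner. It is chrX:140600473-140600772, read on the minus strand, with capitals as above.

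Tsc22d3, window with a single element: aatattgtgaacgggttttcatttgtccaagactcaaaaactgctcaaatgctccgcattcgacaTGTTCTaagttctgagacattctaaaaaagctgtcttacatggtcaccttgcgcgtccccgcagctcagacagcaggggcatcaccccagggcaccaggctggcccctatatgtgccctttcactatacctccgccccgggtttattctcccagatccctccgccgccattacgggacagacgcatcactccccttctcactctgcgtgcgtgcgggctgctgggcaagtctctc

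The windows are short, and receptor sites can lie far outside them. A match is given as a description of the letters only. *Sgk1*, which carries the complete pair, was at 21.03, 8.90 and 33.1 FPKM in the controls and at 14.1, 16.3 and 10.4 FPKM in the med23Δli livers. All med23Δli values lay between the lowest and the highest control. The log2 difference, −0.46 ± 0.43, did not pass (adjusted p = 0.464, limma). It was −0.98 without control replicate 2 (adjusted p = 0.0486, limma) and −0.04 without control replicate 3 (adjusted p = 0.95, limma).

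*Errfi1*, also called Mig6, encodes an inhibitor that binds the kinase domain of the EGF receptor. It was the most abundant member (ENSMUSG00000028967.10; chromosome 4, plus strand, 150853919 to 150868892). The controls had 357, 279 and 307 FPKM and the med23Δli livers 230, 209 and 218 FPKM, with no overlap. The fall was 1.43-fold, from 314 ± 39.3 to 219 ± 10.2 FPKM (SD, n = 3 each), or −0.51 ± 0.14 in log2 units (adjusted p = 0.0368, limma). This call was close to the threshold. Without control replicate 1 the adjusted p was 0.0809, without med23Δli replicate 1, 2 and 3 it was 0.104, 0.132 and 0.101, and with no filter on low values it was 0.0544.

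*Pik3r1* encodes p85α, the regulatory subunit of PI3 kinase that links it to the insulin receptor. On chromosome 13 it occupies the minus strand from 101680563 to 101768217 (ENSMUSG00000041417.15). Its control values were 6.73, 3.05 and 5.20 FPKM and its med23Δli values 9.75, 9.26 and 12.6 FPKM, so that the groups did not overlap. The mean went from 4.99 ± 1.85 to 10.5 ± 1.82 FPKM (SD, n = 3 each), 2.18-fold or 1.12 ± 0.28 in log2 units (adjusted p = 0.0283, limma). With 1 library left out the log2 fold change was 0.81 to 1.37. The adjusted p was 0.0797, 0.071 and 0.106 without med23Δli replicate 1, 2 and 3, and 0.0588 with no filter.

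*Ddit4* encodes REDD1, an inhibitor of mTORC1 that also answers to hypoxia and DNA damage (ENSMUSG00000020108.4; chromosome 10, minus strand, 59949669 to 59951834). It was at 10.2, 15.9 and 10.1 FPKM in the controls and at 12.5, 6.29 and 8.34 FPKM in the med23Δli livers. The ranges overlapped, and the log2 difference of −0.43 ± 0.28 did not pass (adjusted p = 0.285, limma). It was −0.69 without med23Δli replicate 1, −0.20 without med23Δli replicate 2 and −0.22 without control replicate 2.

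The 2 transcription factors among the members did not pass either. *Zbtb16* encodes PLZF, a zinc finger factor (ENSMUSG00000066687.5; chromosome 9, minus strand, 48654297 to 48836222). It had 2.73, 4.23 and 7.43 FPKM in the controls and 7.24, 10.99 and 8.63 FPKM in the med23Δli livers. Only control replicate 3 reached into the range of the med23Δli livers. The log2 difference was 0.98 ± 0.34 (adjusted p = 0.0722, limma), 1.35 without control replicate 3 (adjusted p = 0.0109, limma) and 0.64 without control replicate 1 (adjusted p = 0.167, limma). *Cebpd* encodes C/EBPδ, an acute phase factor (ENSMUSG00000071637.5; chromosome 16, plus strand, 15887286 to 15891031), and shares exon sequence with *Spidr* on the other strand. At 8.71, 9.79 and 8.62 FPKM in the controls and 9.44, 10.8 and 8.77 FPKM in the med23Δli livers, it was the steadiest member among controls, with a coefficient of variation of 7.22%. Its log2 difference was 0.09 ± 0.14 (adjusted p = 0.647, limma).

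**Figure D2:**
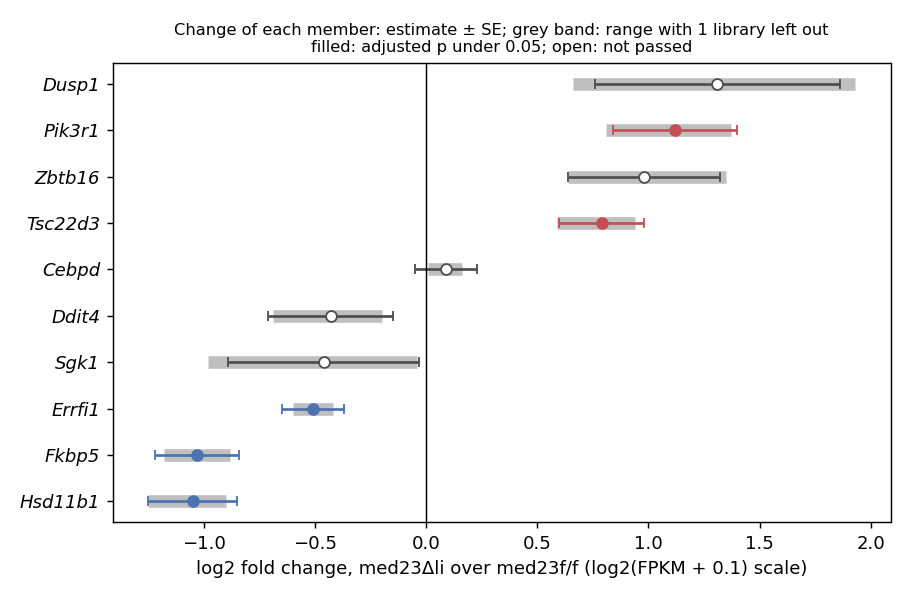
Log2 fold change of each member between med23Δli and med23f/f livers (horizontal axis, log2(FPKM + 0.1) scale) ± standard error, with grey bands for the range over leaving out each of the 6 libraries. Filled points passed an adjusted p under 0.05. The bands of *Dusp1* (0.66 to 1.93) and *Sgk1* (−0.98 to −0.04) are the widest.

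The libraries were also compared member by member. Control replicate 2 was the lowest control in 5 members (*Tsc22d3*, *Sgk1*, *Dusp1*, *Errfi1* and *Pik3r1*) and the highest in 4 (*Fkbp5*, *Cebpd*, *Hsd11b1* and *Ddit4*), so it stood at an end of its group in all but *Zbtb16*. Control replicate 3 was the highest in *Sgk1*, *Dusp1* and *Zbtb16*. The spread between mice, as the SD of the log2 values, was smaller in the med23Δli group for 8 of 10 members, all but *Cebpd* and *Ddit4*. It was smaller in that group for 72.6% of all tested genes as well.

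Ratios of 2 members within a library do not depend on how that library was scaled. The 3 ratios given here were chosen after the values were seen and are a description without a test. *Tsc22d3* over *Fkbp5* was 1.73, 0.694 and 1.19 in the controls and 4.93, 3.59 and 3.59 in the med23Δli livers, a mean 3.35 times higher. In the control with the least *Tsc22d3* there was less of it than of *Fkbp5*, and in every med23Δli liver there was at least 3.59 times as much. *Dusp1* over *Sgk1* was 2.37, 2.18 and 3.43 in the controls and 10.7, 6.78 and 9.71 in the med23Δli livers. These groups lay apart, and among the controls both genes were lowest in replicate 2 and highest in replicate 3. Of the 45 ratios that the 10 members allow, 25 lay apart between the groups, and of the ratios of all tested genes above 0 in every library 44.2% did. *Hsd11b1* over *Fkbp5*, the 2 members that fell most, was 7.96 ± 2.20 in the controls and 7.80 ± 1.82 in the med23Δli livers (SD, n = 3 each), with overlapping ranges.

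**Figure D3:**
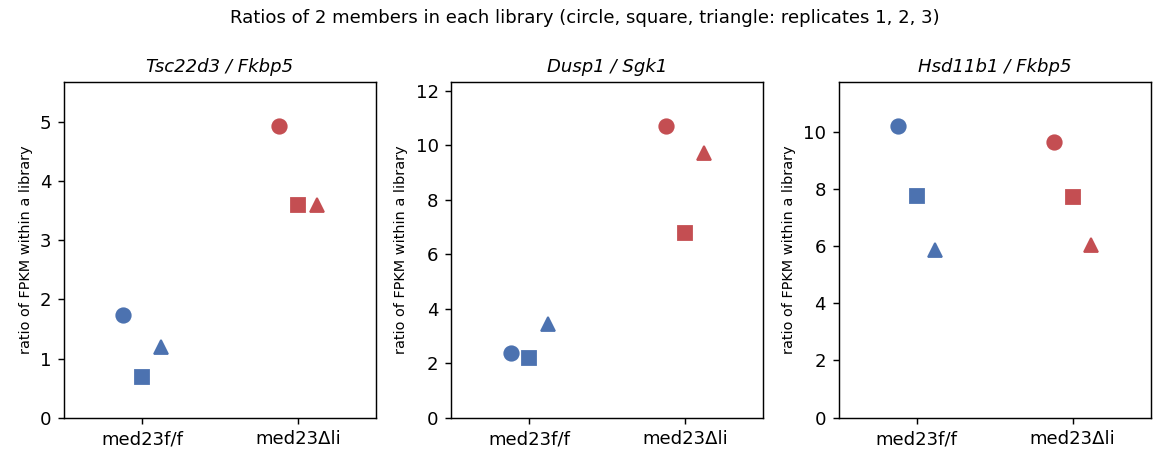
Ratio of the FPKM of 2 members within each library (vertical axes from 0), with circles, squares and triangles for replicates 1, 2 and 3 of med23f/f (blue) and med23Δli (red) livers. *Tsc22d3* / *Fkbp5* and *Dusp1* / *Sgk1* lie apart between the groups, and *Hsd11b1* / *Fkbp5* overlaps.

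The wider pathway was read from lists of genes. Of 11 genes for the corticosteroid receptors and their chaperones, all tested, 2 rose, none fell and 9 did not pass, where 11.6% of all tested genes rose. The count of 2 was 5 without control replicate 1, 1 without any 1 of the med23Δli replicates and 4 with robust eBayes. *Hspa8*, the constitutive Hsp70, rose from 2353 ± 634 to 5869 ± 1168 FPKM (log2 fold change 1.34, adjusted p = 0.0115, limma), and *Hsp90aa1*, an Hsp90 that holds the receptor, rose from 275 ± 113 to 588 ± 29.7 FPKM (1.18, adjusted p = 0.0222, limma; SD, n = 3 each). *Hspa8* passed whichever library was left out, and *Hsp90aa1* did not pass without any 1 of the med23Δli replicates (0.0689 to 0.0815). *Nr3c1*, the glucocorticoid receptor, was at 7.55 ± 2.28 FPKM in the controls and 10.1 ± 0.867 FPKM in the med23Δli livers (SD, n = 3 each). Its 3 med23Δli values were above the controls, but the log2 fold change of 0.46 did not pass (adjusted p = 0.186, limma) and was 0.19 without control replicate 2. *Fkbp4*, which encodes FKBP52 and opposes FKBP51 on the receptor, stood at 0.01 ± 0.20 in log2 units (adjusted p = 0.984, limma), from −0.17 without control replicate 3 to 0.22 without control replicate 1, with its sign below 0 also without control replicate 2 or med23Δli replicate 1 or 3. The median of the list was 0.40.

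Of 7 genes for hormone binding and metabolism, 5 were tested and none passed in limma at an adjusted p under 0.05, while 3 did at an unadjusted p under 0.05, all with higher values in the med23Δli livers, as 20.5% of all tested genes were at that level. With a pseudocount of 1, or without control replicate 1 or 2, 1 gene passed. All 5 tested genes had a log2 fold change above 0, with a median of 0.91, beside 0.02 over all tested genes. *Serpina6*, which encodes the plasma corticosteroid-binding globulin made by hepatocytes, showed a log2 difference of 0.91 ± 0.39 (adjusted p = 0.129, limma), 0.49 without control replicate 3. *Srd5a2* and *Hsd11b2* were under the filter on low values. The mean of *Srd5a2* was lower in the med23Δli livers (0.218 FPKM) than in the controls (0.680 FPKM).

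Among 11 coregulators of the receptor, *Nrip1* rose, *Smarca4* fell and 9 did not pass, where 21.1% of all tested genes rose or fell. *Nrip1*, which encodes the corepressor RIP140, went from 0.545 ± 0.274 to 1.59 ± 0.316 FPKM (SD, n = 3 each), or by 1.48 in log2 units (adjusted p = 0.0303, limma). *Smarca4*, which encodes the chromatin remodelling ATPase BRG1, fell by 0.61 on the log2 scale (adjusted p = 0.0229, limma). Neither call held without control replicate 1 or without any 1 of the med23Δli replicates, with an adjusted p of 0.0536 to 0.105 for *Nrip1* and 0.0529 to 0.0826 for *Smarca4*, and with no filter it was 0.0584 for *Nrip1*. *Med1* and *Med14*, the Mediator subunits known to bind the receptor, had log2 fold changes of −0.06 (adjusted p = 0.815, limma; 0.09 without med23Δli replicate 3) and −0.17 (adjusted p = 0.501, limma). The value of *Med14* ran from −0.27 without control replicate 2 to −0.06 without control replicate 1.

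Of 20 further genes known to rise with glucocorticoid, all tested, 3 rose, 1 fell and 16 did not pass, a changed share of 20.0% beside 21.1% of all tested genes, with a median log2 fold change of 0.56. *Klf9*, a zinc finger gene induced directly by the receptor, rose 3.30-fold from 7.32 ± 1.41 to 24.3 ± 3.87 FPKM (SD, n = 3 each; log2 fold change 1.72, adjusted p = 0.00188, limma) and passed whichever library was left out. *Lpin1*, a phosphatidate phosphatase and coactivator gene, rose (1.38, adjusted p = 0.0389, limma), but passed in only 1 of 6 fits with a library left out, that without control replicate 3, and not with no filter (0.0777), no trend (0.0529) or robust eBayes (0.0532). *Usp2*, a deubiquitinase gene with a circadian rhythm, rose from 0.462 ± 0.055 to 1.14 ± 0.129 FPKM (SD, n = 3 each; log2 fold change 1.14, adjusted p = 0.017, limma). This call was lost without med23Δli replicate 1 or 3 (0.0767 and 0.0583). The control mean of *Usp2* was under the filter of 0.5 FPKM, so it was tested only through its higher med23Δli values. *Mt1*, a metallothionein gene, fell from 2567 ± 948 to 1032 ± 420 FPKM (SD, n = 3 each), −1.33 on the log2 scale (adjusted p = 0.0336, limma). That call was lost without control replicate 2 or 3 or med23Δli replicate 1 or 3 (0.053 to 0.107), and with no filter (0.0766). *Tat*, the textbook hepatic target tyrosine aminotransferase, was at 295 ± 120 and 499 ± 23.5 FPKM (SD, n = 3 each), and the log2 difference of 0.85 did not pass (adjusted p = 0.0791, limma). Without control replicate 3 it was 1.11 and passed (adjusted p = 0.0277, limma), and without control replicate 2 it was 0.47. *Per1*, a clock gene with a receptor site, did not pass either (0.49, adjusted p = 0.226, limma), but was 0.83 and passed without control replicate 3 (adjusted p = 0.0093, limma), and was 0.27 without control replicate 2. The 4 further genes that passed became 1 without med23Δli replicate 1, 2 without med23Δli replicate 3 or with no filter, and 8 without control replicate 3.

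The proteins on which several members act were taken as a list of 22 genes of EGF receptor, MAP kinase, insulin, PI3 kinase and mTOR signalling, of which 21 were tested, 5 rose, none fell and 16 did not pass. The changed share was 23.8%, all of it genes that rose. Of all tested genes 11.6% rose, and 21.1% rose or fell. The count of 5 was 2 without med23Δli replicate 1 or 2 and 9 without control replicate 3. The median log2 fold change of the list was 0.45, beside 0.02 over all tested genes. *Pik3cb*, a catalytic subunit that pairs with the product of *Pik3r1*, rose from 5.08 ± 1.32 to 14.4 ± 0.563 FPKM (SD, n = 3 each), or by 1.52 in log2 units (adjusted p = 0.00368, limma). *Foxo3*, a factor restrained by Akt and SGK1, rose from 1.14 ± 0.183 to 3.42 ± 0.329 FPKM (SD, n = 3 each), 1.51 on the log2 scale (adjusted p = 0.00337, limma). Both passed whichever library was left out. *Mtor* (0.75, adjusted p = 0.0174, limma) and *Tsc2*, which encodes the inhibitor of mTORC1 through which REDD1 acts (0.63, adjusted p = 0.02, limma), rose but did not pass without med23Δli replicate 1 or 2. *Insr*, the insulin receptor gene (0.62, adjusted p = 0.0474, limma), passed only without control replicate 3 among the 6 fits with a library left out, and not with no filter (0.0798) or no trend (0.0613). *Egfr*, the target of the *Errfi1* product, stood at −0.44 in log2 units (adjusted p = 0.129, limma) and was −0.28 without med23Δli replicate 1.

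Of 15 relatives of the members in the same gene families, 2 rose, 1 fell and 12 did not pass. The changed share was 20.0%, near the 21.1% of all tested genes, and the count of 3 was 1 without control replicate 1 or 2, 0 without any 1 of the med23Δli replicates and 6 without control replicate 3. *Cebpg* (log2 fold change 0.95, adjusted p = 0.0208, limma) and *Cebpb* (0.73, adjusted p = 0.0479, limma) rose while *Cebpd* stood at 0.09, and neither held without any 1 of the med23Δli replicates. *Cebpb* also lost the call without control replicate 1 or 2, and after centring each library on its median (adjusted p = 0.0614, limma) or quantile normalization (0.115), with no filter (0.0809) and with no trend (0.0642). *Pik3r3*, a scarce regulatory subunit, fell from 0.788 ± 0.0963 to 0.328 ± 0.0537 FPKM (SD, n = 3 each; log2 fold change −1.05, adjusted p = 0.0335, limma), opposite to *Pik3r1*, and passed only without control replicate 3 among the 6 fits with a library left out. *Pik3r2*, at −0.08, did not pass (adjusted p = 0.722, limma), and was −0.17 without control replicate 1 and −0.01 without control replicate 3.

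**Figure D4:**
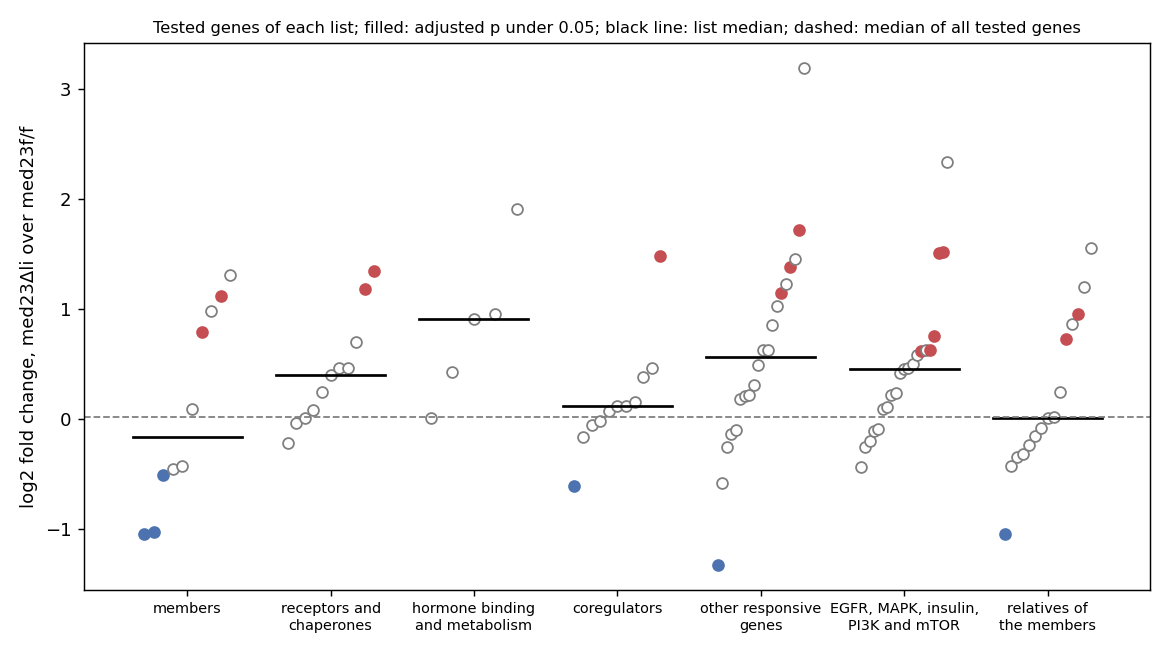
Log2 fold change between med23Δli and med23f/f livers (vertical axis) of the tested genes in the 10 members and in the 6 lists, ordered by size within each. Filled points passed an adjusted p under 0.05 (red, rose; blue, fell), black lines are the list medians, and the dashed line is the median of all tested genes, 0.02. The members, the coregulators, the other responsive genes and the relatives hold genes that passed in both directions, whereas the receptor and chaperone genes and the signalling genes that passed all rose.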

How the data were processed

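Per the paper's methods, the authors prepared libraries from total RNA, sequenced paired reads, trimmed adapters, used TopHat for alignment to UCSC mm10 and Cuffdiff for expression values. Versions, annotation and options are not given in the sources used here. The deposited table holds FPKM for each library, which were used. It also holds group FPKM and the authors' own comparison (fold changes, p-values and q-values), which were not used.

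Genes whose mean reached 0.5 FPKM were kept, as log2(FPKM + 0.1), and the genotypes were tested in R 4.3.3 by limma 3.58.1 (lmFit, eBayes with a mean-variance trend, two-sided, Benjamini-Hochberg adjustment over all genes tested). The fold changes understate those of low genes. Exact permutation tests had 0.1 as their smallest p. The sources used here do not say whether mice shared cages or collection days, and p-values cover the spread between these mice only.

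The members and lists were chosen with earlier results of these data known. Named genes are the members, *Med23*, list genes that passed (at most 6 a list), 7 fixed genes and markers beside a result. *Fkbp4*, *Egfr*, *Pik3r2*, *Srd5a2* and *Hsd11b2*, also named, were chosen after their values were seen. Positions come from GENCODE mouse release M 21 and promoter windows from RefSeq, both on GRCm38. Python 3.11.15, scipy 1.17.1 and matplotlib 3.10.9 were used elsewhere. Alternatives are given in the closing section.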

Additional observations from a re-analysis of the deposited data

How the results depend on the processing

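The direction of all 10 members was kept in each of 15 alternatives (a pseudocount of 1 or of 0.01, all genes kept, a minimum mean of 1 FPKM, median centring, quantile normalization, no trend, robust eBayes, a replicate block and each library left out). Of these 150 values, 132 also kept their side of the threshold, 15 lost it and 3 gained it. The members that rose numbered 0 to 4 and those that fell 1 to 4 with 1 library left out. With no filter 1 member rose. Over all tested genes, the 1384 that rose became 397 to 1723 with 1 library left out, the 1133 that fell 343 to 1420, the 532 that rose more than 2-fold 321 to 718, and the 412 that fell more than 2-fold 255 to 531. The last count was 229 with a pseudocount of 1. The log2 fold change of *Med23* ran from −0.22 to 0.02 with 1 library left out, and turned above 0 only without control replicate 3. Leaving out a library leaves fewer samples; beyond that the cause was not tested.

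The labels give both groups the replicate numbers 1, 2 and 3, but nothing says that a number marks shared animals or days. Deviations of same-numbered libraries from their group means correlated at −0.0222, −0.0459 and −0.124 over 11956 genes, and no library correlated best with its own number. With the replicate block, 809 genes rose and 614 fell, and the adjusted p of *Errfi1* was 0.0569 (limma). No other member changed its call under the block. Among the list genes the block took the adjusted p of *Mtor* to 0.0504, *Smarca4* to 0.0552, *Nrip1* to 0.0616, *Tsc2* to 0.0632, *Pik3r3* to 0.0771 and *Insr* to 0.105 (limma), which left 2 of the 5 signalling genes and none of the coregulators past the threshold.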
